A study of Homo sapiens with 3 samples.

Results

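Metallothioneins are small proteins that bind zinc and copper through their many cysteines. The family was followed through mRNA sequencing of 3 human hepatocellular carcinoma (HCC) cell cultures, with 1 library each. The 10 members were chosen by gene symbol and comprised the metallothionein genes MT1A, MT1E, MT1F, MT1G, MT1H, MT1L, MT1M, MT1X and MT2A and, besides them, MTF1, which encodes the transcription factor that switches them on. Of these 10, 5 were listed in at least 1 library, out of 16149 genes listed in all, and the other 5 (MT1E, MT1F, MT1H, MT1L and MT1M) were listed in none and were taken as 0. The parent was HCCLM3, a human HCC line, labelled as poorly metastatic, although the study's methods give its parental line, HCCLM3-R, which carries a red fluorescent protein, a high metastatic potential. The label of subclone 1 gives it a higher, lung-specific metastatic ability, and that of subclone 2 names lung and celiac lymph node as its targets. According to the methods, the study's clones were grown from single cells out of metastases of HCCLM3-R tumours in nude mice, and which clone was sequenced is not stated. All 3 were cultured in DMEM medium, to which the methods add fetal bovine serum for the parental line, and no metal or hormone treatment is named.

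Metallothionein genes are among the most inducible genes known. MTF1 senses free zinc, enters the nucleus and binds short metal response elements in their promoters, and glucocorticoids and inflammatory cytokines raise several of them as well. Liver is a main site of their synthesis, and lower levels than in normal liver are well known in HCC.

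The sequences of the 3 metallothionein genes listed in every library are shown first, because they show the cysteine pattern that the family shares and how far its members resemble each other. The listed metallothionein genes lie in 1 cluster on chromosome 16 in the GENCODE annotation of GRCh38, which differs from the build of the deposited values (hg19 in the submitters' processing notes). MT2A spans chr16:56608199-56609497 on the plus strand, MT1A chr16:56638666-56640087 on the plus strand, MT1G chr16:56666731-56668065 on the minus strand and MT1X chr16:56682424-56684196 on the plus strand. The coding sequences, exonic and joined over 3 exons, are given from start to stop codon, with every cysteine codon in capitals.
MT2A: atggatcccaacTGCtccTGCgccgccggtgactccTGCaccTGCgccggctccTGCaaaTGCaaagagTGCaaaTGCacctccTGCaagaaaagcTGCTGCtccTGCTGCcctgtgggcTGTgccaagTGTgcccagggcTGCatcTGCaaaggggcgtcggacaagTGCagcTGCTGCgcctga
MT1X: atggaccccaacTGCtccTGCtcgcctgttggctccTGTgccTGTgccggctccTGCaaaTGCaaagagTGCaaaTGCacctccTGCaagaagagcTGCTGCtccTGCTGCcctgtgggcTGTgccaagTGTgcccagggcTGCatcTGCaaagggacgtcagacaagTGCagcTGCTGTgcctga
MT1G: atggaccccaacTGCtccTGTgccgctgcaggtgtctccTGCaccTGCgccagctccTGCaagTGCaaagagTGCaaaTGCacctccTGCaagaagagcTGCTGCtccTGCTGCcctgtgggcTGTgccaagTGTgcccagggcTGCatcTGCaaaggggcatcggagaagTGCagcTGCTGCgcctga
Each of the 3 held 20 cysteine codons, which is 32.8% of the 61 codons before the stop in MT2A and MT1X and 32.3% of the 62 codons in MT1G. MT2A and MT1X differed at 14 of 186 bases (92.5% identity). The longest coding run without a difference was 96 bases between MT1X and MT1G, 63 bases between MT1X and MT2A and 65 bases between MT2A and MT1G. A read inside such a run matches both genes. How the authors treated such reads is not stated, so the levels of single members may hold reads of their copies. Windows of 50 bases were also compared, pooled over all GENCODE transcripts of each gene. Those that occurred in no other GENCODE gene made up 97.0% of MT2A, 81.7% of MT1X, 83.5% of MT1G and 94.2% of MT1A. MT1X had 1867 windows in all and MT2A 1390, more than the 450 and 786 bases of their reference transcripts. The shares therefore do not describe the overlap within a single transcript, which was not counted. Most of the shared windows of MT1X (273) were shared with the annotated gene AC026461.1, and 51 with MT1G. For the 5 members that were not listed the share was 84.2% in MT1H, 90.1% in MT1M, 92.9% in MT1E, 95.6% in MT1L and 98.8% in MT1F.

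Of the 10 members, 4 were matched to RefSeq promoters of GRCh38.p14 (MT2A, MT1X, MT1H and MTF1). The 250 bases before the RefSeq start were searched on both strands for the core of the metal response element, written as TGCACNC or TGCGCNC, and no matches in the promoters shown overlapped. The RefSeq starts differ from the GENCODE ones. The promoter shown for MT2A lies inside the GENCODE span of the gene given above, and that of MT1X reaches into its span. The promoters of the 2 members with the highest mean level over the libraries are shown with the matches of either strand in capitals, the first from chr16:56608334-56608583 and the second from chr16:56682220-56682469, both on the plus strand.
MT2A: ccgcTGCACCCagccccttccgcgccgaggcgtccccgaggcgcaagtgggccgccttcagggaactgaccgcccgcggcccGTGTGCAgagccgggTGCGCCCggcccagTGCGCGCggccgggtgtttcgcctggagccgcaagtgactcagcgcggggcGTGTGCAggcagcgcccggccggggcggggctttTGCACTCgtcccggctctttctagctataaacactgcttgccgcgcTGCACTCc
MT1X: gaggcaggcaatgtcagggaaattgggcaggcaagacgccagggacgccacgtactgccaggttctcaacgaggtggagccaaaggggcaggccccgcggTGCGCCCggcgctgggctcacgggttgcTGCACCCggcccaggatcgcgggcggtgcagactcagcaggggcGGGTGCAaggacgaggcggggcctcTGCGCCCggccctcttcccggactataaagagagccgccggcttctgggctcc
MT2A held 7 matches, 5 on the plus and 2 on the minus strand, and MT1X held 4, with 3 on the plus strand and 1 on the minus strand. MT1H, which was not listed in any library, held 8, and MTF1 held 0. Of 35116 promoters of the same length, 24.8% held at least 1 match, 0.370% at least 4 and 0.0313% at least 7. A match is a run of letters and not a measured binding site.

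Levels are given in RPKM, reads divided by gene length and library depth, which allows genes to be compared per length. Whole reads were recovered from the RPKM, with totals of 4488825 reads for the parent, 4609696 reads for subclone 1 and 4725150 reads for subclone 2. Intervals are exact 95% intervals on these reads (Poisson for a level, Clopper-Pearson for a ratio) and cover counting error only. As each cell line had 1 library, nothing was tested between cell lines, and a difference below is a difference between libraries. In such bulk samples, fewer cells that express a gene and less RNA per cell cannot be told apart.

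MT2A, the most widely expressed human metallothionein, was the most abundant member in the parent. Its level was 5.74 RPKM in the parent (12 reads, 2.96 to 10.02), 8.38 RPKM in subclone 1 (18 reads, 4.97 to 13.2) and 6.81 RPKM in subclone 2 (15 reads, 3.81 to 11.2). The intervals of the 3 libraries overlapped throughout. The ratio to the parent was 1.46-fold in subclone 1 (0.666 to 3.32) and 1.19-fold in subclone 2 (0.519 to 2.78), and that of subclone 2 to subclone 1 was 0.813 (0.381 to 1.71), so that no difference in MT2A was detectable at this depth.

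MT1X, a metallothionein 1 isoform that metals also induce, was the member that differed most between libraries among those with more than a few reads. It had 2.86 RPKM in the parent (6 reads, 1.05 to 6.22), 12.98 RPKM in subclone 1 (28 reads, 8.62 to 18.8) and 6.33 RPKM in subclone 2 (14 reads, 3.46 to 10.6). With these reads the level of subclone 1 lay above that of the parent with no overlap of the intervals, while subclone 2 lay between them and overlapped both. In subclone 1 the level of MT1X was 4.54 times the parental one (1.85 to 13.4). In subclone 2 it was 2.22 times the parent, with an interval from 0.800 to 7.04 that includes no difference. Subclone 2 had 0.488 times the level of subclone 1 (0.237 to 0.958). The reads of MT1X rest on a gene length of 468 bases, near the 450 bases of its reference transcript. The RPKM also allow a length of 234 bases with 3, 14 and 7 reads. The level intervals would then overlap, at 0.589 to 8.35 RPKM in the parent and 7.10 to 21.8 RPKM in subclone 1. With these smaller reads the ratio of subclone 1 over the parent had an interval from 1.27 to 24.7, while for subclone 2 against subclone 1 it ran from 0.167 to 1.29, so that only the former excludes equal levels on either count of reads.

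MT1G and MT1A stood at the edge of detection. MT1G had 1 read in the parent (0.563 RPKM), 2 reads in subclone 1 (1.096 RPKM) and 1 read in subclone 2 (0.534 RPKM). MT1A had 1 read, in subclone 1 (0.464 RPKM), and was not listed in the parent or subclone 2, where the 3 reads taken as the limit of a count of 0 correspond to 1.43 and 1.36 RPKM. No order of the libraries can be read from these counts, and both genes share coding runs with MT1X, whose part in these reads was not tested. If absence from the tables stands for 0 reads, the same limit of 3 reads is 0.766 to 1.68 RPKM for the 5 members listed nowhere, at the length of the first GENCODE transcript of each gene. This limit is lower than the upper end of the exact interval at 0 reads, which is 1.76 RPKM for MT1A in the parent. MT1L, 1 of these 5, is annotated as a transcribed pseudogene.

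**Figure D1:**
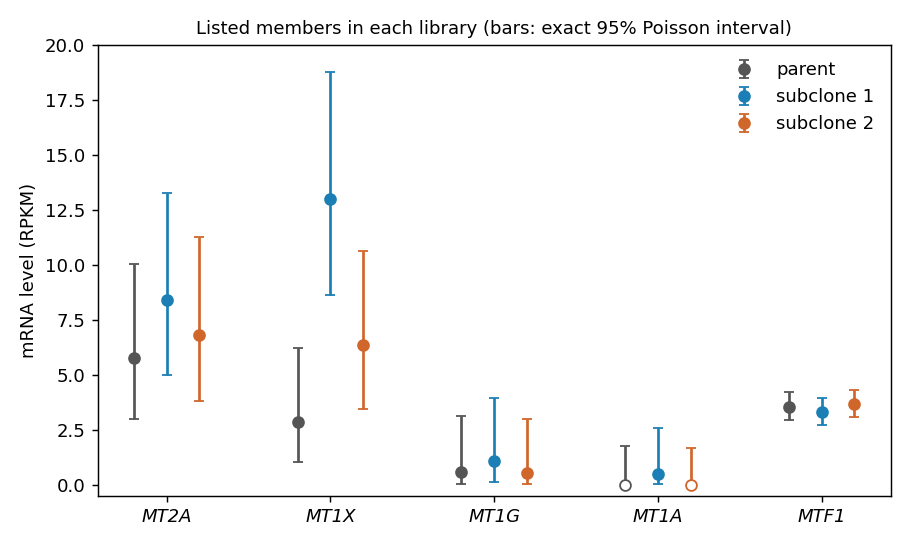
The mRNA level of the 5 listed members in RPKM (vertical axis) in the parent, subclone 1 and subclone 2, 1 library each; bars are exact 95% Poisson intervals and open circles mark genes not listed. MT1X in subclone 1 (12.98 RPKM) stands clear of the parent (2.86 RPKM) with 28 and 6 reads, though not with the 14 and 3 reads that its RPKM also allow, whereas the bars of MT2A and MTF1 overlap across the libraries.

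MTF1, the regulator, was better measured because its mRNA is long (7986 bases). It had 3.54 RPKM in the parent (127 reads, 2.95 to 4.22), 3.29 RPKM in subclone 1 (121 reads, 2.73 to 3.93) and 3.66 RPKM in subclone 2 (138 reads, 3.07 to 4.32). These 3 levels were close to each other and their intervals overlapped. The ratio to the parent was 0.928 in subclone 1 (0.717 to 1.20) and 1.03 in subclone 2 (0.805 to 1.32), so that a change of MTF1 mRNA of 1.5-fold or more lies outside both intervals. MTF1 lies on chromosome 1, apart from the genes it controls.

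The order of the members was MT2A, MTF1, MT1X and MT1G in the parent, MT1X, MT2A, MTF1, MT1G and MT1A in subclone 1, and MT2A, MT1X, MTF1 and MT1G in subclone 2. The exchange of MT2A and MT1X at the head was within counting error in every library. MT1X stood to MT2A as 0.498 in the parent (0.153 to 1.43), 1.55 in subclone 1 (0.827 to 2.97) and 0.929 in subclone 2 (0.416 to 2.07). MT1X exceeded MTF1 beyond the intervals of both in subclone 1, but not in the parent.

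Together the 4 listed metallothionein genes had 19 reads in the parent, 49 reads in subclone 1 and 30 reads in subclone 2. Their summed level was 9.16, 22.9 and 13.7 RPKM. The sum in subclone 1 was 2.50 times the parental sum (1.45 to 4.52). Subclone 2 had 0.597 times the sum of subclone 1 (0.366 to 0.960) and 1.49 times that of the parent (0.817 to 2.82). These intervals were taken on the pooled reads of the 4 genes. With the smaller reads of MT1X, pooled to 16, 35 and 23 reads, they became 1.15 to 4.12, 0.362 to 1.12 and 0.691 to 2.77. MT1X counts for less in those pooled reads than in the summed RPKM, so the latter intervals are not centred on the ratios given. MT1X made up 31.2% of the parental sum, 56.6% of that in subclone 1 and 46.3% of that in subclone 2. Without MT1X, the sum in subclone 1 was 1.58 times that of the parent with an interval from 0.752 to 3.42, so that the difference in the sum rests on this gene.

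**Figure D2:**
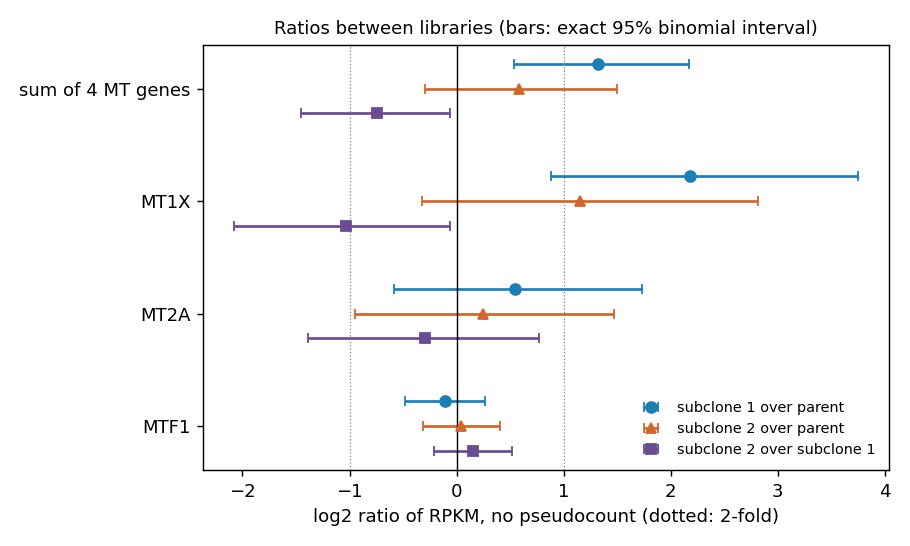
Ratios of RPKM between libraries on a log2 axis for the sum of the 4 listed metallothionein genes, MT1X, MT2A and MTF1; symbols give the 3 pairs of libraries, bars exact 95% binomial intervals, and dotted lines 2-fold. The bars for subclone 1 over the parent lie right of 0 for the sum (2.50-fold) and MT1X (4.54-fold), and those of MT2A and MTF1 cross 0.

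Counts against a fixed fold were taken on log2 of (RPKM + 0.1), for genes with a mean of at least 1 RPKM over the libraries, which 3 of the 10 members reached (MT1X, MT2A and MTF1). In subclone 1 over the parent, MT1X was the 1 member at least 2-fold higher, with a log2 ratio of 2.15, and 0 were lower, where 4.9% of all 11370 genes were at least 2-fold higher and 1.82% lower. In subclone 2 over the parent MT1X was again the 1 member at least 2-fold higher (log2 ratio 1.12), against 5.33% of all genes, and 0 members were lower, against 2.16%. In subclone 2 over subclone 1 it was the 1 member at least 2-fold lower (log2 ratio -1.02), against 1.39% of all genes, and 0 were higher, against 1.42%. This last count became 0 with a pseudocount of 1 or after division by ACTB or GAPDH, and the count of subclone 2 over the parent became 0 with a pseudocount of 1. These comparisons share libraries with each other. Genes at low levels passed 2-fold more often. Among the 5359 genes with a mean of 1 to 10 RPKM, where all 3 members lie, 7.69% exceeded the parent at least 2-fold in subclone 1 and 3.38% fell at least 2-fold below it. For subclone 2 these shares were 8.3% and 3.71%, and for subclone 2 against subclone 1 they were 2.58% and 2.63%. This range matches the members in level and not in reads. MT1X had 6, 28 and 14 reads, whereas MTF1 in the same range had 127, 121 and 138. The share among genes with as few reads as MT1X was not taken. After division by ACTB, the shares above and below the parent in subclone 1 were 3.95% and 2.88% of all genes, and those of subclone 2 against subclone 1 were 1.90% and 1.07%. After division by GAPDH the latter were 1.86% and 1.11%.

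Metallothionein mRNAs are short, and their levels were set beside those of genes of like recovered length. A recovered length can be a fraction of the real one, so some of these genes may have longer mRNAs. The range of 350 to 550 bases was chosen after the values of the members were seen. It held 141 genes with a mean of at least 1 RPKM, with medians of 35.8, 38.01 and 37.2 RPKM in the parent, subclone 1 and subclone 2. Of the 139 genes other than MT2A and MT1X, 25.2%, 23.02% and 22.3% were below MT2A in the parent, subclone 1 and subclone 2. Below MT1X were 20.1%, 30.9% and 22.3%. Both genes thus stood below the median of the genes of this recovered length in every library. Among all 11370 genes, MT2A stood at percentiles 32.6, 41.9 and 35.6 in these libraries, and MT1X at 16.8, 55.0 and 33.4.

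**Figure D3:**
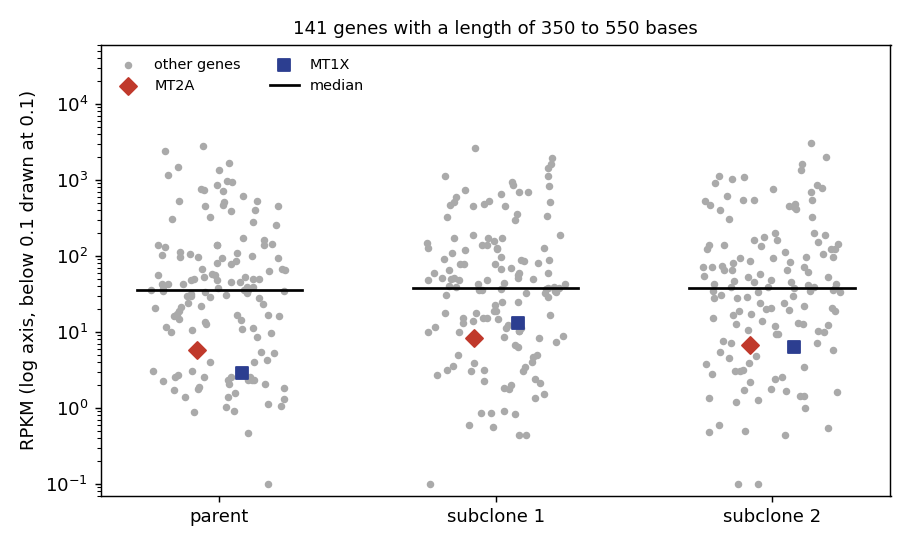
Levels in RPKM (log axis) of the 141 genes with a recovered length of 350 to 550 bases and a mean of at least 1 RPKM, in each of the 3 libraries; grey points are other genes and lines are medians. MT2A (diamond) and MT1X (square) lie below the median of about 36 to 38 RPKM in every library.

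Further genes that belong to the family or only carry its name had few reads. Of 10 fixed besides the members, 3 were listed: MT1B with 1 read in subclone 1, the pseudogene MT1IP with 1 read in the parent and 1 read in subclone 2, and MTL5, a metallothionein-like gene named for its expression in testis, with 6, 8 and 8 reads. MT3 and MT4, the brain and epithelial forms, were not listed.

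The 7 listed genes that export zinc summed to 86.5, 82.5 and 80.4 RPKM in the parent, subclone 1 and subclone 2. This is above the sum of the 4 listed metallothionein genes but runs over more genes. Of 10 zinc exporters of the SLC30A family, 5 had a mean of at least 1 RPKM, and 0 of these were 2-fold higher or lower in any pair of libraries. SLC30A1, the exporter of the plasma membrane and a direct target of MTF1, had 20.04 RPKM in the parent, 18.3 RPKM in subclone 1 and 16.4 RPKM in subclone 2. Its ratios to the parent were 0.915 (0.739 to 1.13) and 0.820 (0.659 to 1.02), from the smallest reads that its RPKM allow, and both intervals include equal levels. Over the parent, the exporters had median log2 ratios of -0.05 (subclone 1) and -0.01 (subclone 2), beside 0.00 and 0.04 for all genes. The counts of this and the following lists stand beside 4.9% of all genes at least 2-fold above and 1.82% below the parent in subclone 1, and 5.33% and 2.16% in subclone 2.

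Of 14 zinc importers of the SLC39A family, 11 had a mean of at least 1 RPKM, of which 1 exceeded the parent at least 2-fold in subclone 1 and 2 did so in subclone 2, with 0 lower. SLC39A8, which brings zinc and manganese into cells, had 2.17 RPKM in the parent, 4.87 RPKM in subclone 1 and 5.27 RPKM in subclone 2. Its ratios to the parent were 2.24 (1.30 to 3.997) and 2.42 (1.42 to 4.29). SLC39A11 had 8.83, 15.97 and 19.3 RPKM with ratios to the parent of 1.81 (1.43 to 2.30) and 2.18 (1.74 to 2.75). The ratio of subclone 2 to subclone 1 was 1.08 for SLC39A8 (0.712 to 1.65) and 1.21 for SLC39A11 (1.001 to 1.46). The median log2 ratios of the importers were 0.36 in subclone 1 and 0.38 in subclone 2.

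Of 15 genes that handle copper, 12 had a mean of at least 1 RPKM, and 1 was at least 2-fold higher in each subclone than in the parent, with 0 lower. This was CP, which encodes ceruloplasmin, the copper oxidase that the liver secretes. CP had 42.8 RPKM in the parent, 125 RPKM in subclone 1 and 117 RPKM in subclone 2. Its ratios to the parent were 2.93 (2.72 to 3.17) and 2.73 (2.53 to 2.95). The list's median log2 ratios were 0.08 and 0.17.

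The 7 fixed targets of MTF1 outside the family, all with a mean of at least 1 RPKM, lay on both sides of the parent. In subclone 1, 1 was at least 2-fold higher than in the parent and 0 lower, and in subclone 2 there were 1 higher and 1 lower, with median log2 ratios of 0.01 and -0.28. PGF, placental growth factor, had 0.233 RPKM in the parent (2 reads), 1.93 RPKM in subclone 1 (17 reads) and 2.10 RPKM in subclone 2 (19 reads). Its ratios to the parent were 8.28 (1.96 to 73.9) and 9.02 (2.18 to 79.9), and it reached the mean of 1 RPKM through the subclones. HAMP, the iron hormone hepcidin, was at least 2-fold lower in subclone 2 on 3, 6 and 1 reads, with an interval of its ratio to the parent from 0.00603 to 3.94. The other targets did not reach 2-fold. SLC39A10, a zinc importer that MTF1 represses, had ratios to the parent of 0.698 (0.609 to 0.800) and 0.601 (0.521 to 0.692). GCLC, which makes the first step of glutathione synthesis, had ratios of 0.726 (0.657 to 0.802) and 0.699 (0.632 to 0.772). The selenoprotein gene SEPW1 had ratios of 1.55 (1.31 to 1.84) and 1.61 (1.36 to 1.91). The intervals of C11orf31, as those of SLC30A1, included equal levels in both subclones.

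Glucocorticoid genes were counted because the hormone receptor also acts on metallothionein genes. Of the 10 fixed, 8 had a mean of at least 1 RPKM, and 2 were at least 2-fold higher than the parent in each subclone, with 0 lower. SGK1, a kinase induced by the hormone, had 0.625 RPKM in the parent, 4.94 RPKM in subclone 1 and 4.22 RPKM in subclone 2, with ratios to the parent of 7.90 (3.94 to 17.96) and 6.76 (3.35 to 15.4). KLF9, a transcription factor of the same response, had 0.171, 1.83 and 1.75 RPKM with ratios of 10.7 (3.90 to 41.05) and 10.2 (3.71 to 39.2). Both genes were under 1 RPKM in the parent and passed the mean through the subclones. The other 6 genes did not reach 2-fold and differed in direction. TSC22D3, a leucine zipper gene of the hormone response, had ratios to the parent of 1.79 (1.26 to 2.58) and 1.60 (1.12 to 2.31), and the receptor gene NR3C1 had 1.47 (1.27 to 1.69) and 1.18 (1.01 to 1.37). DUSP1, a phosphatase gene, had 1.67 (1.26 to 2.23) and 1.31 (0.978 to 1.77). FKBP5, a chaperone gene that the hormone induces, had 0.607 (0.507 to 0.725) and 0.612 (0.513 to 0.730). The intervals of PER1 and ERRFI1 included equal levels in both subclones. The list's median log2 ratios over the parent were 0.64 and 0.49. Of 13 genes of metal and oxidative stress, such as the haem oxygenase gene HMOX1, 0 were 2-fold higher or lower in either subclone. Their median log2 ratios were -0.24 and -0.11. Over the parent, the intervals of HMOX1, HSPH1, GCLM, GCLC, SRXN1 and SLC7A11 lay below equal levels in both subclones. Those of HSPB1 and NQO1 lay above. GCLM had ratios of 0.616 (0.576 to 0.659) and 0.632 (0.591 to 0.676), and HSPB1 1.40 (1.29 to 1.53) and 1.19 (1.09 to 1.30). DNAJB1 and TXNRD1 lay below in subclone 1 only, and the intervals of HSPA1A, HSPA1B and BAG3 included equal levels in both.

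**Figure D4:**
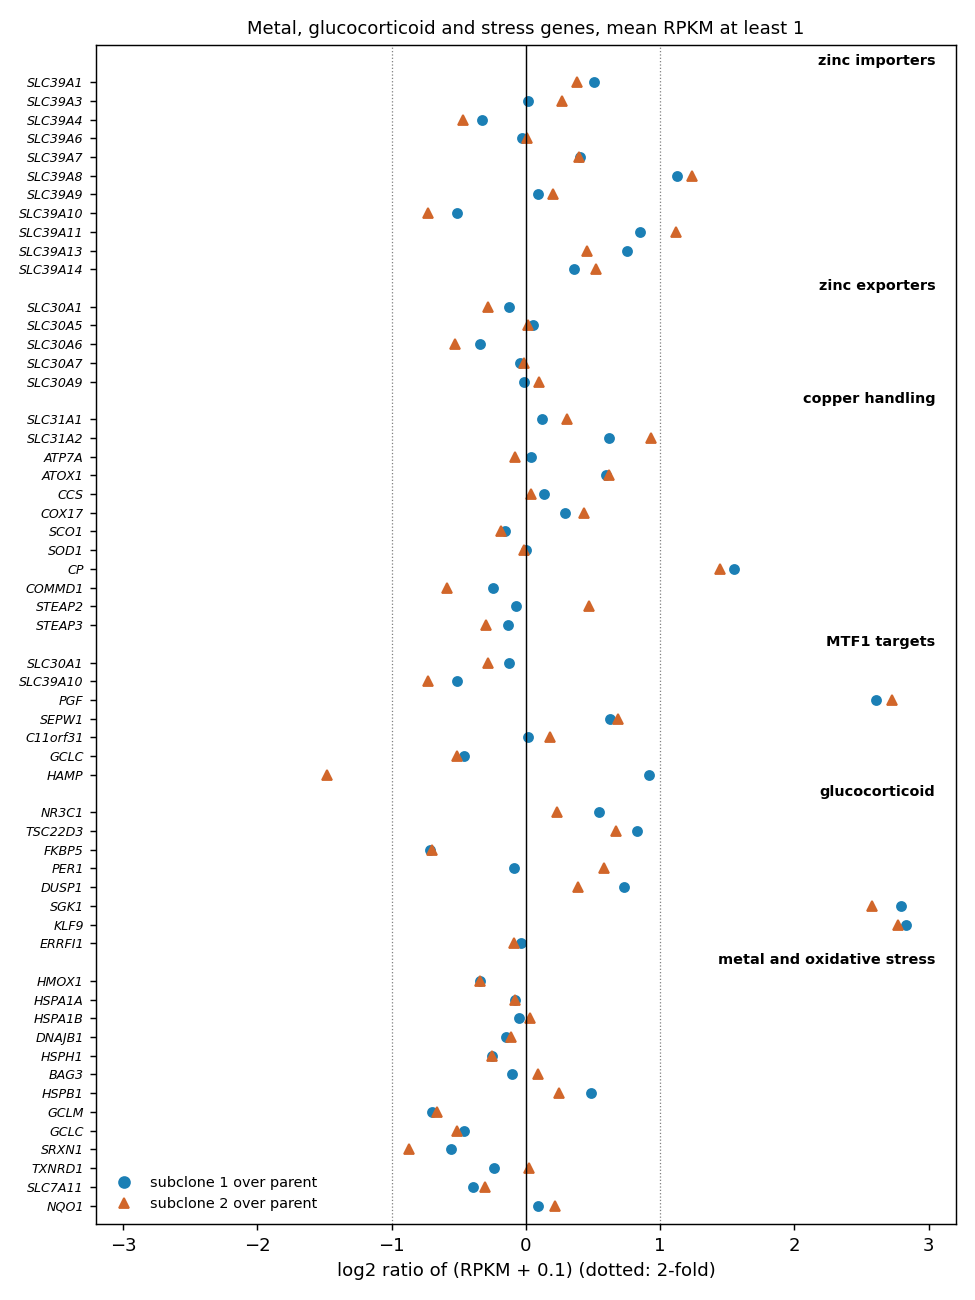
Log2 ratios of (RPKM + 0.1) over the parent for the genes of the 6 lists with a mean of at least 1 RPKM, with circles for subclone 1, triangles for subclone 2 and dotted lines at 2-fold; SLC30A1, SLC39A10 and GCLC belong to 2 lists each. SLC39A8, CP, PGF, SGK1 and KLF9 lie beyond 2-fold in both subclones, and all 13 stress genes lie within it.

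The cluster itself holds 15 genes in the RefSeq table of GRCh38.p14, 9 of them members. The 10 nearest protein-coding genes with a mean of at least 1 RPKM on each side were compared. Of these 20, each subclone had 1 at least 2-fold above and 2 at least 2-fold below the parent, with median log2 ratios of 0.04 and -0.03, where 4.9% and 5.33% of all genes were above and 1.82% and 2.16% below. The genes next to the cluster, BBS2 before it and NUP93 after it, had log2 ratios of 0.08 and -0.26 in subclone 1, and of -0.07 and -0.26 in subclone 2. The 3 genes beyond 2-fold lay farther out. They were the homeobox gene IRX5 (0.406 and 0.369 times the parent), the matrix metalloproteinase gene MMP2 (0.297 and 0.0608 times) and the chemokine gene CX3CL1 (ratios of 8.76 with an interval from 2.10 to 77.9 and of 20.4 from 5.32 to 174, on 2 reads in the parent). CX3CL1 reached the mean of 1 RPKM through the subclones.

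**Figure D5:**
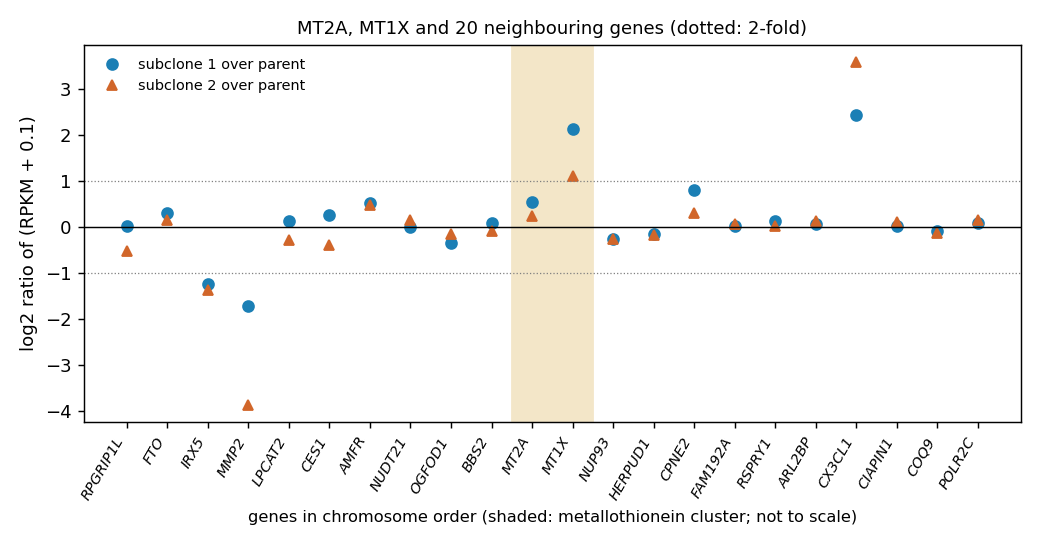
Log2 ratios of (RPKM + 0.1) over the parent for MT2A, MT1X (shaded) and 20 neighbouring genes in chromosome order, with circles for subclone 1, triangles for subclone 2 and dotted lines at 2-fold. The 17 neighbours other than IRX5, MMP2 and CX3CL1 lie within 2-fold, whereas MT1X lies at 2.15 and 1.12.

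The genes most like the members in pattern were taken by the distance between their log2 ratios over the parent, 2 ratios from 3 libraries, among 8209 genes with a mean of at least 5 RPKM. For MT2A the nearest were ZNF629, NR3C1, SLC35E3, AKR7A2 and GADD45B, at distances of 0.0119 to 0.0257. NR3C1, the glucocorticoid receptor gene, had 9.97, 14.6 and 11.7 RPKM. This pattern was common, since 595 genes lay within 0.25 of it. For the summed metallothionein level the nearest were ATP8B3, VSIG10L, CXXC5, BAAT and SLCO2B1, at distances of 0.0562 to 0.139, and 12 genes lay within 0.25. Counting error is far wider than these distances, with ratios to the parent of 1.45 to 4.52 and 0.817 to 2.82 for the sum. For MT2A they were 0.666 to 3.32 and 0.519 to 2.78. The nearest genes and the numbers within 0.25 may therefore change within counting error. BAAT, which conjugates bile acids in hepatocytes, had 14.5 RPKM in the parent, 33.9 RPKM in subclone 1 and 20.2 RPKM in subclone 2.

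Markers of liver cells and of other cell types were compared in the same libraries. Of 14 hepatocyte genes, 13 were listed, and their summed level was 68.9 RPKM in the parent, 169 RPKM in subclone 1 and 160 RPKM in subclone 2. The liver factor HNF4A had 11.7, 11.9 and 16.01 RPKM. TTR, SERPINA1 and APOA1, abundant in normal hepatocytes, were below 1 RPKM, and GPC3 was not listed. Albumin (ALB) had 2.46 RPKM in the parent, 49.5 RPKM in subclone 1 and 68.8 RPKM in subclone 2. The other hepatocyte genes with a 2-fold difference in any pair of libraries were the apolipoprotein gene APOB (0.300, 1.23 and 4.17 RPKM), the transferrin gene TF (5.71, 30.3 and 5.88 RPKM) and the fibrinogen genes FGA (1.16, 6.53 and 4.63 RPKM) and FGB (1.66, 14.5 and 5.60 RPKM). Fibroblast genes (5 of 9 listed) summed to 15.7, 31.1 and 24.3 RPKM, with at most 1 read of COL1A2, and among them LUM had 10.1, 23.99 and 21.003 RPKM, DCN 0.773, 4.42 and 2.75 RPKM and COL3A1 4.42, 2.21 and 0.463 RPKM. Leukocyte genes (6 of 8) summed to 77.2, 115 and 102 RPKM, nearly all of it CD68, with at most 1 read of PTPRC. Endothelial genes (5 of 6) summed to 5.11, 11.9 and 7.60 RPKM, with at most 1 read of CDH5, and among them PECAM1 had 3.33, 9.81 and 4.46 RPKM and KDR 1.36, 1.93 and 3.08 RPKM. These sums were all highest in subclone 1, as the summed metallothionein level was, and their part in it was not tested.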

How the data were processed

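Total RNA of 3 cultures, 1 library each, was extracted with Trizol and prepared with the TruSeq kit of Illumina. The authors deposited 1 RPKM value per gene, listing genes above 0; the build in the submitters' processing notes is hg19, and the aligner, the counting and the treatment of shared reads are not given in the sources used here. Missing genes were set to 0. Library totals were the largest whole numbers that best turned the 150 lowest RPKM of each library into whole gene lengths (94.0% to 95.3% of them within 0.01). Each gene took the smallest length that gave whole reads in all libraries, or, where this was outside the range of 0.5 times the median to 1.5 times the longest GENCODE transcript, a multiple within 10% of a transcript where there was one. Totals, reads and intervals were tested on data simulated from the recovered lengths, which cannot reveal a real length taken as a fraction. No test between cell lines was made, and intervals were not adjusted for the number of genes. Members and lists were chosen with earlier results of these data known. Named are all members, list genes at least 2-fold different with a mean of at least 1 RPKM, SLC30A1 and 20 neighbours. Named too are the 5 genes nearest in pattern to MT2A and to the sum. MT1X was left out of the sum as an alternative added after seeing the data. The stress genes, the other MTF1 targets and glucocorticoid genes, and the members of the other metallothionein list were picked after values were seen. So were the markers with no 2-fold difference. Some items are not reported here. Other alternatives were pseudocounts, scalings, filters and the fold. Scripts ran on scipy 1.17.1, pandas 2.3.3 and numpy 2.4.6 under Python 3.11.15.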

Additional observations from a re-analysis of the deposited data

Results flagged for a closer look

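The subclones lay on opposite sides of the parent in 2 members, a difference that was not tested. MTF1 had a log2 ratio over the parent of -0.105 in subclone 1 and 0.0446 in subclone 2, and MT1G had 0.852 and -0.0626. For MTF1 the intervals of both ratios include equal levels, and MT1G rests on 1, 2 and 1 reads.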

How the results depend on the processing

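The log2 ratios of the summed level and of single members stayed within their 95% counting intervals under all alternatives run, 27 values for the sum and 98 for the members, and none whose interval excluded 0 changed sign. In subclone 1 over the parent these intervals reach from 1.45 to 4.52-fold for the sum and from 0.666 to 3.32-fold for MT2A. Staying within intervals this wide shows little about stability, and nothing for MT1A and MT1G. For MT1A in subclone 1 over the parent, the log2 ratio ran from 0.55 to 5.57. For subclone 1 over the parent, the other pseudocounts, scalings and the sum without MT2A gave 1.18 to 2.06 for the sum, and the pseudocounts and scalings 1.86 to 2.18 for MT1X. Leaving MT1X out, chosen after seeing the data, gave 0.65 for the sum. This value also counts as within the interval of the full sum, although its own interval, 0.752 to 3.42-fold, includes equal levels. The members at least 2-fold different changed with the setting as follows. With no filter on RPKM, 2 members were higher in subclone 1 than in the parent and 2 were lower in subclone 2 than in subclone 1, in place of 1 and 1, since MT1A enters with 1 read, where 9.43% and 5.59% of all genes did so. With a pseudocount of 1, 0 members were higher in subclone 2 than in the parent, and 0 were lower in subclone 2 than in subclone 1, as also after division by ACTB or GAPDH (0 in each). In the metal, glucocorticoid and stress lists together, 5 genes exceeded the parent in subclone 1, while in subclone 2 there were 6 above and 1 below it, and 1 was lower in subclone 2 than in subclone 1. The shares of all genes were 4.90%, 5.33%, 2.16% and 1.39% in this order. The lists held 5 zinc exporters, 11 importers, 12 copper genes, 7 MTF1 targets, 8 glucocorticoid genes and 13 stress genes with a mean of at least 1 RPKM. SLC30A1, SLC39A10 and GCLC belong to 2 lists each. The list counts are therefore numbers of genes and not shares, and the list genes passing the other filters were not counted. With no filter the first count was 8, the lower genes of subclone 2 over the parent 2 and of subclone 2 over subclone 1 4, beside 9.43%, 5.83% and 5.59% of all genes. With a mean of at least 5 RPKM the counts were 1 and 2 higher and 0 lower over the parent, and 0 lower between the subclones. Of all genes, 2.84% and 3.08% were higher and 0.865% and 1.13% lower over the parent, and 0.560% lower between the subclones. At 1.5-fold the counts were 13 higher and 2 lower in subclone 1, 10 higher and 6 lower in subclone 2, and 1 higher between the subclones. The shares of all genes at 1.5-fold were 11.6% and 7.46% in subclone 1, 12.7% and 7.30% in subclone 2, and 4.75% higher between the subclones. With a pseudocount of 1 there were 0 lower in subclone 2 than in the parent, beside 1.32% of all genes. Over these settings the share of all genes higher in subclone 1 than in the parent went from 2.84% to 11.6%, against 4.90% as reported. No paired analysis was possible because there is 1 library per cell line, and none could be left out. The 19 metallothionein reads of the parent leave the ratio of the sum between 1.45 and 4.52, and the spread between cultures is unknown for every gene.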
